A study of Homo sapiens with 6 samples.

Results

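The genes described here are the zinc transporters, the metallothioneins and their metal sensor in RL95-2, a long-established line of human endometrial cancer cells. They were taken by name from the count tables: every symbol of the SLC39A family (zinc importers), the SLC30A family (zinc exporters) and the MT1 and MT2 metallothioneins, with the transcription factor MTF1 and the pseudogene MT1JP. This gave 36 of the 23228 genes, made up of 14 importers, 10 exporters, 10 metallothioneins and those 2 single genes. The 10 metallothioneins, counted by symbol, include MT1L, which the GENCODE annotation lists as a pseudogene. The rule itself uses only names, but this family was chosen by the difference between control and ADP-CM libraries that earlier results of the same data had shown, above all for SLC39A10. Fold changes and calls of the members are therefore descriptions and not independent tests of the family.

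All 6 libraries came from RL95-2 cells kept for 24 h in serum-free medium. The cells of the 3 control libraries received RPMI and DMEM in equal volumes. For the 3 ADP-CM libraries, filtered DMEM in which mature adipocytes from human visceral fat had been kept took the place of the plain DMEM. The fat donors were female patients with a high body mass index, and their number is not stated. All libraries come from this single line, and poly(A) RNA was read as single reads of 50 bases, and 16262614 to 17096135 reads per control library and 18103609 to 18363033 reads per ADP-CM library were counted on genes. Values after ± are standard deviations over the 3 libraries of a group (n = 3).

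Zinc enters the cytosol through importers of the SLC39A (ZIP) family, from outside or from organelles, and leaves it through exporters of the SLC30A (ZnT) family, out of the cell or into organelles and vesicles. Metallothioneins are small cysteine-rich proteins that bind zinc, copper and cadmium in the cytosol. MTF1 senses free zinc and, when zinc is plentiful, binds metal response elements and activates the metallothionein genes and SLC30A1, while it is known to hold SLC39A10 down.

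Promoters of the zinc genes were searched for the known binding letters of MTF1. The letters searched were the core of the metal response element, TGCACNC or TGCGCNC, on both strands, with overlapping matches each counted. The windows were those of RefSeq on GRCh38.p14, from 250 bases before to 50 bases after a transcript start, and each member window was placed on GRCh37 by an exact match. Shown here, 5′ to 3′ and with the core letters in capitals, are the 250 bases before the start of MT2A and MT1X, the most abundant metallothioneins, and of SLC30A1, the exporter with the largest difference between the groups. MT2A lies on the plus strand (GRCh37 chr16:56642246-56642495), MT1X on the plus strand (chr16:56716132-56716381) and SLC30A1 on the minus strand (chr1:211752504-211752753). The last line gives 30 transcribed bases near the second RefSeq start of SLC39A10, on the plus strand (chr2:196521970-196521999), which hold the single core found for that gene.
MT2A: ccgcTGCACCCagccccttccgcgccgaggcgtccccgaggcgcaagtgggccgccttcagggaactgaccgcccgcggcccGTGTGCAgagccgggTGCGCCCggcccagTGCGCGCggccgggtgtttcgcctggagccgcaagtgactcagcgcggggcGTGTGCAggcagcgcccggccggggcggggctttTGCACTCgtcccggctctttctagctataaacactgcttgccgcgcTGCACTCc
MT1X: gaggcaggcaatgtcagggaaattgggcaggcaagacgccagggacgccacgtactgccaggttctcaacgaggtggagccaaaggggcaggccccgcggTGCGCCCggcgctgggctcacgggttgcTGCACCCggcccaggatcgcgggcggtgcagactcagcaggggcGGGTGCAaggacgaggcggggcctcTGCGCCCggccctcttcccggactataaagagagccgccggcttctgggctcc
SLC30A1: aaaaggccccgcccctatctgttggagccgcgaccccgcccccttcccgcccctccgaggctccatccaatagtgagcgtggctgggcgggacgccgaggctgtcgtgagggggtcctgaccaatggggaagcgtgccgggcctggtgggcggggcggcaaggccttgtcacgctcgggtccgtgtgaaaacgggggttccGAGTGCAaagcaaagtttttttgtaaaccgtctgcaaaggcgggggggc
SLC39A10: agcggagaggagaTGCACACggcactcgag

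MT2A held 8 cores in its window, 7 of them before the start, and 8 or more were found in 0.0199% of all 35116 promoter windows. The MT1X window held 4 cores, a number reached by 0.601% of windows. SLC30A1 held 2, at 49 bases before and 25 bases after its start, and 2 or more were found in 8.6% of windows. For SLC39A10 no core lay in the window of the first RefSeq start, and the second had 1, at 34 bases after the start, where 29.6% of all windows hold at least 1. MTF1's own window had none. Among the 35 windows of the 26 members that had one, 17 held at least 1 core (48.6%), but the metallothionein genes are copies of one another and several genes have more than 1 start, so these windows are not independent. MT1H, with 0 reads in every library, also held 8. MT1A, MT1E, MT1F, MT1G, MT1JP, MT1L, MT1M, SLC30A8, SLC39A14 and SLC39A4 had no window. A match of letters is a description and does not show that MTF1 binds there in these cells.

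**Figure D1:**
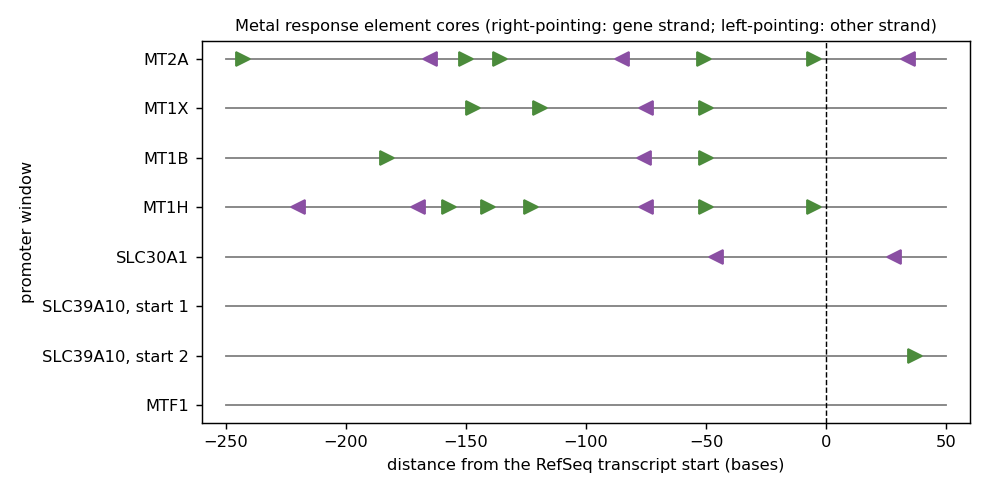
Positions of metal response element cores (triangles, pointing right for the gene's strand and left for the other) against the distance in bases from the RefSeq transcript start, for 8 promoter windows. MT2A and MT1H hold 8 cores each, MT1X 4, MT1B 3, SLC30A1 2, SLC39A10 1 over both of its starts, and MTF1 none.

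In ADP-CM, 1 importer stood far above its control level and 1 exporter stood far below. Of the most abundant metallothioneins, MT1X was modestly higher and MT2A only slightly. SLC39A10 was 3.34-fold higher, SLC30A1 was lowered to 0.538 of its control level, MT1X was 1.40-fold higher and MT2A 1.07-fold higher. MT2A's log2 fold change of 0.097 was smaller than the median absolute log2 fold change of all tested genes, 0.106. The comparison used edgeR's quasi-likelihood test after TMM normalization, and a gene is called raised or lowered at a Benjamini-Hochberg adjusted p-value under 0.01 over all 12663 tested genes. Of the 36 members, 23 had enough reads to be tested. Of these, 6 were raised and 4 lowered, where 13.5% of all tested genes were raised and 13.0% lowered. With the added limit of a 1.5-fold change, as the study used, 1 member was raised and 1 lowered, beside 1.14% of all tested genes in each direction. The 3 ADP-CM libraries lay above the 3 control libraries for 9 members and below them for 5, beside 22.7% and 22.8% of all tested genes. The 9 include MT1B, which had enough reads for the test only through the ADP-CM libraries. The labels do not say whether the 3 cultures of a group were set up separately, so the p-values measure only the spread between these samples. In bulk RNA, fewer cells with a transcript and less of it per cell cannot be told apart.

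Of the 11 tested importers 4 were raised and 1 lowered, with a median log2 fold change of 0.02. Of the 7 tested exporters edgeR called 0 raised and 3 lowered, with a median of -0.13. Of the 4 tested metallothioneins edgeR called 2 raised and 0 lowered, with a median of 0.39. MT1B, which entered the test only through the ADP-CM libraries, counts toward that median, and without MT1B it was 0.30. At an unadjusted p under 0.05, where 22.6% of all tested genes were higher and 22.4% lower, the counts were 5 higher and 2 lower for importers, 0 and 4 for exporters, and 3 and 0 for the metallothioneins other than MT1B. DESeq2 called 3 importers raised and 1 lowered, 0 exporters raised and 2 lowered, and 2 metallothioneins raised and 0 lowered, beside 9.01% and 8.13% of all genes to which it gave an adjusted p-value. Over all genes tested with edgeR the median log2 fold change was -0.0023. The classes were not tested against each other.

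**Figure D2:**
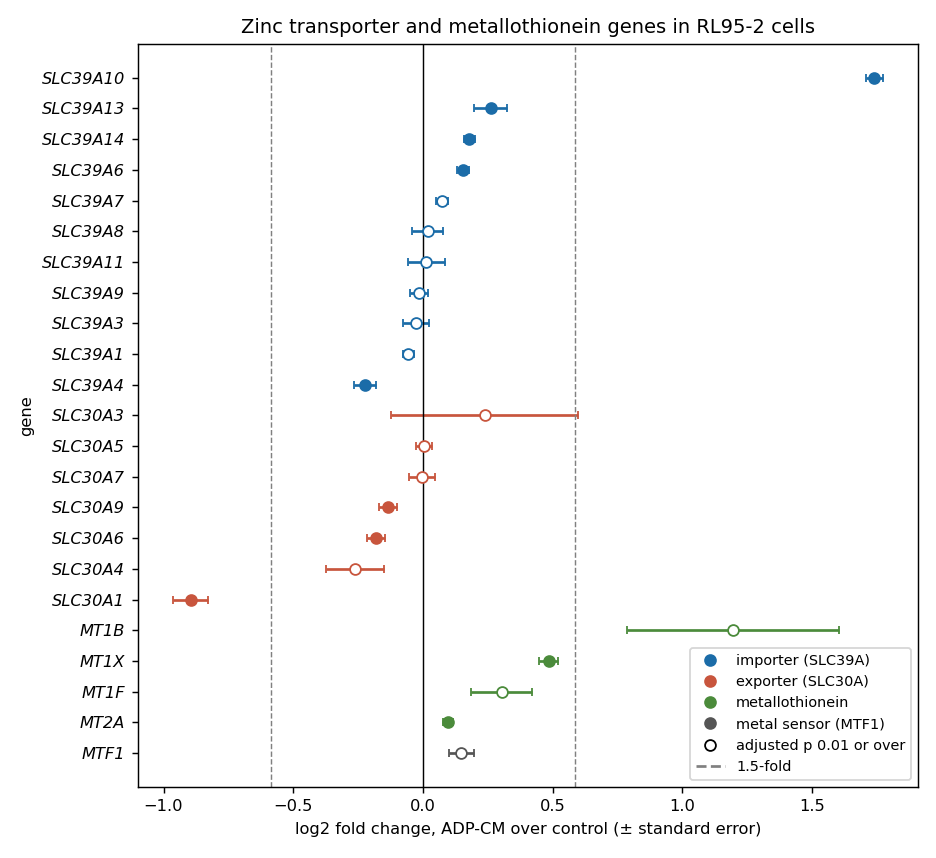
Log2 fold change of ADP-CM over control (x axis, points with standard errors, 3 libraries a group) for the 23 tested genes, by class, with filled points for an adjusted p-value under 0.01 and dashed lines at 1.5-fold. SLC39A10 stands at 1.74 and SLC30A1 at -0.89, while the other importers and exporters with a call lie between -0.22 and 0.26.

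SLC39A10, which encodes the plasma membrane importer ZIP10, had 62.3, 59.2 and 57.9 CPM (read counts scaled to a common library size, with TMM factors) in the control libraries. It had 196.6, 204.8 and 197.3 CPM in the ADP-CM libraries. All ADP-CM libraries stood far above all control libraries, and those within a group lay close together (59.8 ± 2.24 and 199.6 ± 4.51 CPM). The log2 fold change was 1.74 with a standard error of 0.033. By log2 fold change SLC39A10 ranked 5 among all 12663 tested genes. Among the 9570 tested genes with a mean of at least 10 CPM, it had the largest rise. No other annotated gene shares its exons on either strand (GRCh37 chromosome 2, 196440701 to 196602426), and 100% of the 50-base windows of its main transcript occur in no other gene's transcripts. As a share of all importer reads, SLC39A10 went from 3.72% ± 0.128 to 11.03% ± 0.240.

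SLC30A1 encodes ZnT1, the exporter that moves zinc out across the plasma membrane. Its control libraries had 26.2, 27.8 and 25.8 CPM. The ADP-CM libraries had 14.7, 14.8 and 13.4 CPM, all below the lowest control library. The log2 fold change was -0.89 with a standard error of 0.068, the 12th largest fall among the same 9570 genes. On GRCh37 the gene lies on chromosome 1 from 211744910 to 211752503, and its exons overlap no other annotated gene. SLC39A10 had 2.25 ± 0.126 CPM for each CPM of SLC30A1 in control and 13.96 ± 0.685 in ADP-CM. Both genes kept their call and direction under every alternative normalization, filter, test and left-out library that was tried. These refits reuse the libraries whose difference led to the choice of this family, so they are not independent support.

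**Figure D3:**
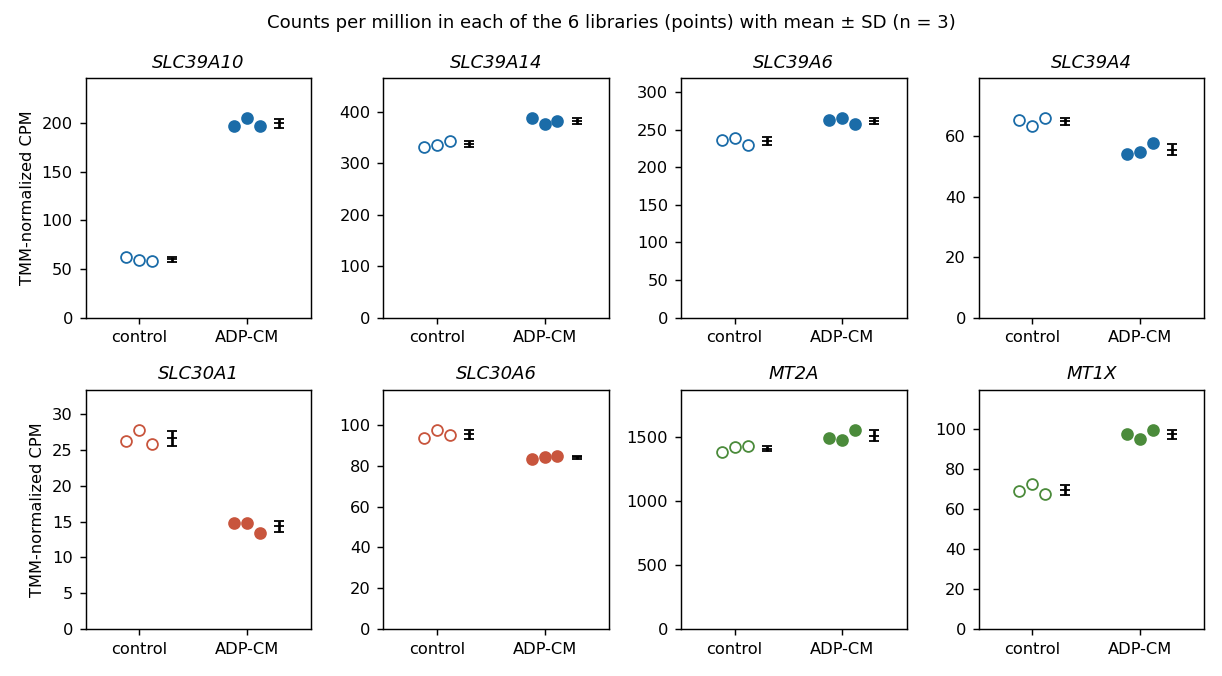
TMM-normalized CPM (y axis, starting at 0) in each of the 3 control (open) and 3 ADP-CM (filled) libraries, with mean and SD beside the points, for 8 genes. The groups do not overlap in any of the 8 panels, and the gap is widest relative to the level for SLC39A10 and SLC30A1.

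The importers that RL95-2 cells expressed most, per exon length, differed little between the groups. Levels per length (TPM, which sum to the same total in every library) were computed with the merged exon length of GENCODE release 44 on GRCh37. On that scale SLC39A1 (ZIP1, a plasma membrane importer) was highest, at 607.4 ± 3.10 TPM in control and 587.7 ± 7.97 in ADP-CM. It had 425.7, 420.0 and 422.8 CPM in control and 402.2, 404.3 and 413.7 CPM in ADP-CM. These groups do not overlap, but the difference of -0.06 on the log2 scale was not past the threshold (adjusted p-value 0.0307, edgeR's quasi-likelihood test). Over all alternatives the adjusted p-value ran from 0.00835 without ADP-CM replicate 3 to 0.151 without ADP-CM replicate 1 (both edgeR). In GENCODE, 60.8% of the exonic bases of SLC39A1 also belong to a second gene model on the same strand, and the part of this overlap in its count was not tested.
SLC39A7 (ZIP7, which releases zinc from the endoplasmic reticulum) came next in control, with 325.4 ± 3.17 TPM. Its CPM values were 270.0, 268.2 and 264.7 in control and 280.9, 277.7 and 286.1 in ADP-CM, again without overlap. The adjusted p-value of 0.0108 (edgeR's quasi-likelihood test, log2 fold change 0.07) lay just outside the threshold. Over all alternatives it ran from 0.00654 without ADP-CM replicate 2 to 0.0546 without control replicate 3 (both edgeR). On the other strand 9.0% of its exonic bases overlap RXRB.

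SLC39A6 encodes ZIP6, also called LIV-1, which can pair with ZIP10 and is an estrogen-responsive gene in breast cancer. It had 235.9, 239.6 and 229.7 CPM in control and 262.5, 265.2 and 257.4 CPM in ADP-CM. The rise was small, 0.15 on the log2 scale with a standard error of 0.025, and larger than the spread between replicates. SLC39A14 encodes ZIP14, which carries iron and manganese besides zinc. Its control libraries had 332.1, 336.7 and 343.3 CPM and its ADP-CM libraries 387.9, 376.4 and 381.8 CPM, a rise of 0.18 on the log2 scale with a standard error of 0.022. Per length these genes moved from 310.6 ± 6.82 to 347.9 ± 6.04 TPM for SLC39A6 and from 237.7 ± 4.15 to 270.8 ± 3.76 TPM for SLC39A14.

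SLC39A13 (ZIP13, an importer of the secretory pathway needed in connective tissue) had 21.2, 20.6 and 21.9 CPM in control. In ADP-CM it had 25.5, 24.6 and 26.2 CPM, all above control, with a log2 fold change of 0.26 and a standard error of 0.062. DESeq2 did not call SLC39A13 (adjusted p-value 0.0115). The 1 lowered importer was SLC39A4 (ZIP4, which takes up dietary zinc in the intestine). It had 65.3, 63.5 and 66.0 CPM in control and 54.1, 54.9 and 57.7 CPM in ADP-CM (log2 fold change -0.22, standard error 0.041).

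The other tested importers were not past the threshold and overlapped between the groups. Their log2 fold changes were -0.02 for SLC39A9 (ZIP9, of the Golgi), -0.03 for SLC39A3 (ZIP3, of the plasma membrane), 0.02 for SLC39A8 (ZIP8, which also carries manganese) and 0.01 for SLC39A11 (ZIP11). Their standard errors ranged from 0.034 for SLC39A9 to 0.072 for SLC39A11. SLC39A2, SLC39A5 and SLC39A12 were too low to test, at no more than 9, 1 and 0 reads in any library.

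By TPM, SLC39A10 was the 8th of the 14 importers in control, at 42.1 ± 1.53 TPM, beside SLC39A3 at 43.5 ± 1.13. In ADP-CM it was the 5th, at 141.3 ± 3.49 TPM, between SLC39A14 at 270.8 ± 3.76 and SLC39A9 at 74.3 ± 4.42. With these merged exon lengths, SLC39A10 and SLC39A3 did not differ beyond their spread in control, nor did SLC39A6 and SLC39A7 in ADP-CM (347.9 ± 6.04 and 344.4 ± 4.44). These neighbours lay apart with the length of each gene's canonical transcript, a choice made after seeing the data. SLC39A10 then had 30.8 ± 1.12 TPM and SLC39A3 77.9 ± 1.98 in control, and SLC39A6 had 198.9 ± 3.42 and SLC39A7 316.3 ± 4.15 in ADP-CM. SLC39A10 was again the 8th importer in control and the 5th in ADP-CM. Summed over all importers, CPM was 1607 ± 5.24 in control and 1809 ± 8.34 in ADP-CM, and SLC39A10 made up 69.1% of that difference. Without SLC39A10 the sums were 1547 ± 3.26 and 1610 ± 8.35.

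**Figure D4:**
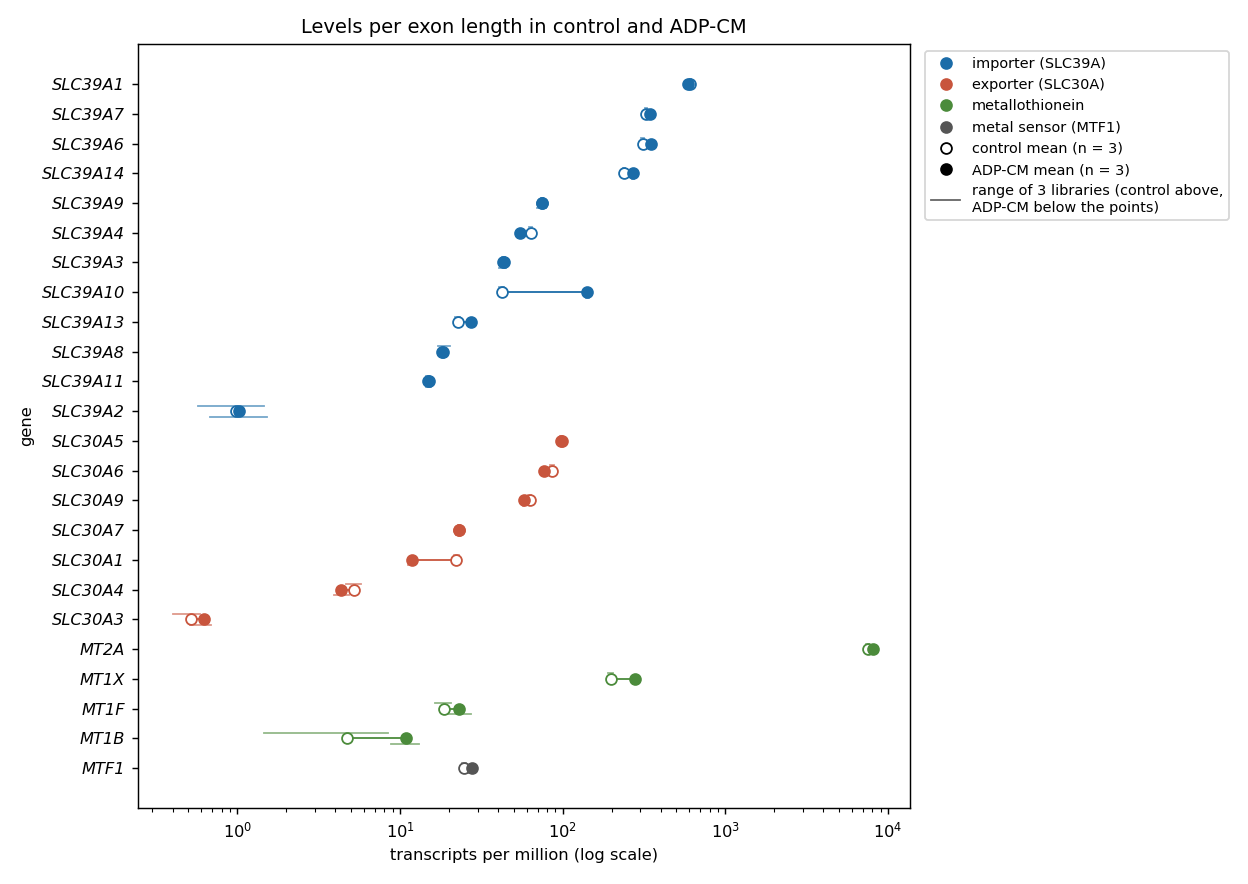
Mean TPM (x axis, log scale) in control (open) and ADP-CM (filled), with the range of the 3 libraries of each group as thin lines, for the members above 0.1 TPM in either group. MT2A is the highest member in both groups, and SLC39A10 and SLC30A1 show the longest gaps among the well expressed transporters.

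Besides SLC30A1, the lowered exporters were SLC30A6 and SLC30A9. SLC30A6 encodes ZnT6, which pairs with ZnT5 to load zinc into enzymes of the secretory pathway. It had 93.6, 97.8 and 95.2 CPM in control and 83.6, 84.2 and 84.8 CPM in ADP-CM (log2 fold change -0.18, standard error 0.034). Its partner SLC30A5 was the most abundant exporter per length (97.7 ± 1.80 TPM in control) and showed no such difference. SLC30A5 had 109.1, 107.2 and 111.3 CPM in control and 110.6, 109.1 and 109.1 CPM in ADP-CM, with a log2 fold change of 0.0048 and a standard error of 0.032.
SLC30A9, a mitochondrial zinc transporter, had 94.4, 93.5 and 90.2 CPM in control and 84.0, 84.8 and 84.4 CPM in ADP-CM. Its log2 fold change of -0.13 (standard error 0.035) passed with edgeR's quasi-likelihood test (adjusted p-value 0.00131). The call was lost with DESeq2 (adjusted p-value 0.0141), without control replicate 1 (0.0127, edgeR) and without control replicate 2 (0.0101, edgeR).

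SLC30A7, which also supplies the secretory pathway, and SLC30A4, an exporter of endosomes and vesicles, overlapped between the groups. Their log2 fold changes were -0.0032 (standard error 0.050) and -0.26 (standard error 0.11). SLC30A3, known for filling synaptic vesicles with zinc, had 8 to 15 reads per library, and with a standard error of 0.36 on a log2 fold change of 0.24 a difference was not detectable at this depth. SLC30A2 and SLC30A10 had 0 reads in every library, and SLC30A8, the exporter of insulin granules, had at most 3. At 0 reads the shallowest library allows up to 0.184 CPM (3 reads, counting error only).

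Exporters summed to 373.9 ± 2.21 CPM in control and 340.9 ± 2.62 in ADP-CM. SLC30A1 made up 37.3% of that difference, and without it the sums were 347.3 ± 1.28 and 326.6 ± 1.97. By TPM with merged exon lengths the order of the 7 tested exporters was the same in both groups, namely SLC30A5, SLC30A6, SLC30A9, SLC30A7, SLC30A1, SLC30A4 and SLC30A3. In control SLC30A7 and SLC30A1 lay within their spread of each other (23.0 ± 0.481 and 22.0 ± 0.904 TPM). In ADP-CM they lay apart, at 23.1 ± 0.998 and 11.9 ± 0.662 TPM. The near tie in control depends on the length used. With canonical transcript lengths SLC30A7 had 13.3 ± 0.273 TPM and SLC30A1 12.2 ± 0.509 in control, a little beyond their spread.

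Metallothionein RNA in these cells was almost entirely MT2A, the isoform that most human tissues express. MT2A took 94.8% ± 0.164 of metallothionein reads in control and 93.4% ± 0.0232 in ADP-CM. Its level was 1387, 1422 and 1430 CPM in control and 1493, 1480 and 1561 CPM in ADP-CM. Each ADP-CM library was above each control library, although by little, and the log2 fold change was 0.10 with a standard error of 0.018.
MT1X had 69.2, 72.6 and 67.6 CPM in control and 97.8, 95.4 and 99.9 CPM in ADP-CM. Every ADP-CM library was above every control library. This rise of 0.48 on the log2 scale (standard error 0.036) was the largest of any called member besides SLC39A10, and fell short of 1.5-fold. For each CPM of MT2A there was 0.0494 ± 0.00193 CPM of MT1X in control and 0.0647 ± 0.000747 in ADP-CM. Per length MT2A had 7522 ± 131 TPM in control and 8093 ± 216 in ADP-CM, and MT1X had 196.7 ± 7.41 and 276.9 ± 5.83. The level of MT1X depends on the length used, at 466 ± 17.9 TPM in control with the canonical transcript. In the annotation 18.6% of the exonic bases of MT1X belong to another gene model on its strand.

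MT1F had 6.23, 7.28 and 7.78 CPM in control and 7.40, 8.56 and 10.3 CPM in ADP-CM, so the groups overlapped. MT1F was the third metallothionein by level per length. Its log2 fold change of 0.30 (standard error 0.12) did not pass (edgeR's quasi-likelihood test, adjusted p-value 0.0332). Left-out libraries moved it from 0.17 without ADP-CM replicate 3 (adjusted p-value 0.314, edgeR) to 0.41 without ADP-CM replicate 1 (adjusted p-value 0.00728, edgeR), and DESeq2 gave an adjusted p-value of 0.145. MT1B had 11, 6 and 2 reads in control and 19, 13 and 16 reads in ADP-CM. It entered the test only through the ADP-CM libraries, and its log2 fold change of 1.19 (standard error 0.41) did not pass (adjusted p-value 0.0164, edgeR's quasi-likelihood test). It rested on single control libraries, at 1.86 (adjusted p-value 0.00385, edgeR) without control replicate 1 and 0.76 (adjusted p-value 0.171, edgeR) without control replicate 3. MT1A, MT1E, MT1G, MT1H, MT1L, MT1M and MT1JP had 0 reads in every library. The summed metallothionein level was 1490 ± 23.6 CPM in control and 1618 ± 46.8 in ADP-CM, with 76.6% of the difference from MT2A and 21.7% from MT1X.

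Reads that align to more than 1 place are not counted on genes, which matters for a family of near copies on chromosome 16. Of the 50-base windows of the MT2A transcript, 63.6% differed by more than 2 bases from every other metallothionein transcript, pseudogenes included, and for MT1X this was 71.8%. Counted against all annotated genes and by exact match, 88.9% of the MT2A windows but 49.0% of the MT1X windows occur in no other gene's transcripts. The MT1X matches include the gene model that overlaps MT1X on its own strand, which lies at the same place in the genome. For MT1X the 49.0% is therefore not a measure of several alignments, and the part from true copies was not counted. For the genes with 0 reads the share ran from 29.2% for MT1L to 64.0% for MT1G and MT1A, with 63.0% for MT1E. By share of windows, MT1E, MT1G and MT1A have about as much distinct sequence as MT2A, and they had no counted read. Whether reads of these genes were lost to several alignments was not tested. Counts of MT2A, MT1X and MT1F can lack reads from their shared stretches. Of the aligned reads in the counting output, those without a unique alignment were 20.5 to 20.6% in control and 20.7 to 20.8% in ADP-CM. Their part in the metallothionein values was not tested.

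**Figure D5:**
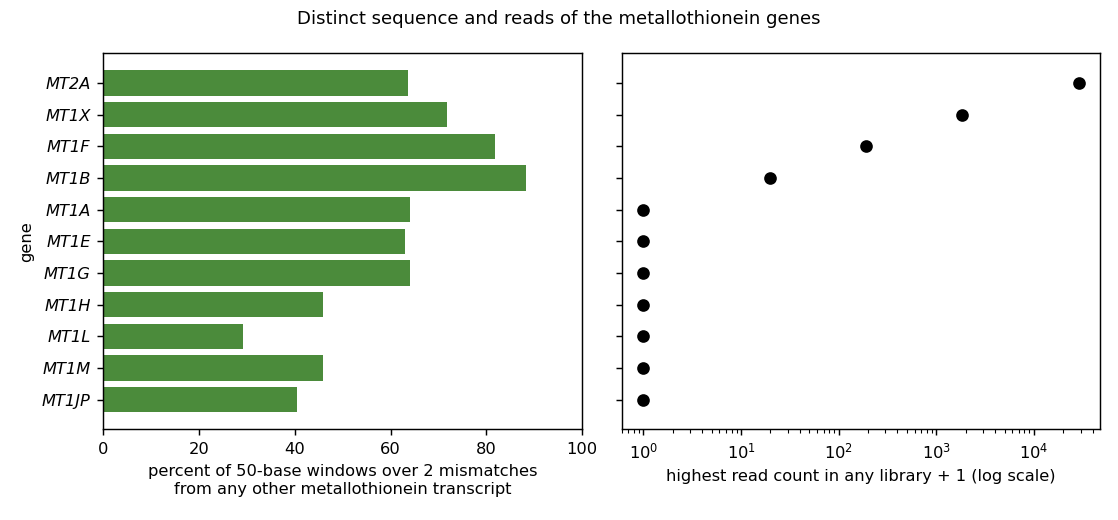
In the left panel, the percent of 50-base windows of each gene's main transcript that differ by more than 2 bases from every other metallothionein transcript. In the right panel, the highest read count plus 1 in any of the 6 libraries (log scale), which is 1 for MT1A, MT1E, MT1G, MT1H, MT1L, MT1M and MT1JP, all with 0 reads.

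MTF1 itself had 40.7, 41.4 and 39.7 CPM in control and 46.8, 42.9 and 45.3 CPM in ADP-CM. The groups did not overlap, but the log2 fold change of 0.15 (standard error 0.049) was not past the threshold (adjusted p-value 0.0121, edgeR's quasi-likelihood test). Over all alternatives the adjusted p-value ran from 0.00438 without ADP-CM replicate 2 to 0.0967 without ADP-CM replicate 1 (both edgeR), with 0.0709 in DESeq2.

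A further list of 32 genes that handle zinc, copper or related metals was written from general knowledge, and 23 of them were tested. Of these 4 were raised and 1 lowered, beside 13.5% and 13.0% of all tested genes, with a median log2 fold change of -0.06. Its smallest p-values belonged to ALPP, HMOX1, SLC11A2, CA2 and ATP7B. ALPP, a placental alkaline phosphatase that needs zinc, fell from a control level of 19.7 ± 1.61 CPM to 9.83 ± 0.813 CPM in ADP-CM, a difference of -1.0 on the log2 scale, and its near copy ALPPL2 had at most 9 reads. Reads of these copies can be lost where their sequences match. HMOX1, the heme oxygenase that metals and oxidants induce, rose by 0.29, CA2, a zinc-dependent carbonic anhydrase, by 0.30, ATP7B, a copper exporter, by 0.29 and SLC11A2, an importer of iron and other divalent metals, by 0.19 on the log2 scale.

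Markers of the cell line and of other cells were checked. All 6 epithelial markers were expressed, with a summed level of 3991 to 4062 CPM in control and 3313 to 3357 CPM in ADP-CM, and 5 of them were lowered. The endometrial markers summed to 166.6 to 178.9 CPM in control and 198.3 to 217.2 CPM in ADP-CM, mostly from PAX8. Of the 5 tested endometrial markers 2 were raised, and the progesterone receptor PGR had at most 12 reads. Of 9 adipocyte markers 3 (ADIPOQ, LEP and CIDEA) had 0 reads in every library, and the sum was 0.801 to 1.18 CPM in control and 0.994 to 1.30 CPM in ADP-CM. The stromal markers summed to 61.5 to 68.4 CPM in control and 78.3 to 79.1 CPM in ADP-CM, with 1 of 5 raised and nearly all of the sum from COL1A1. The leukocyte markers summed to 6.90 to 8.11 CPM in control and 9.76 to 11.9 CPM in ADP-CM, with 1 of 4 raised and most of the sum from CD68, while PTPRC had at most 1 read. The epithelial, endometrial, stromal and leukocyte sums did not overlap between the groups. The endothelial markers, nearly all CDH5, summed to 60.7 to 66.4 CPM in control and 54.5 to 61.6 CPM in ADP-CM, with PECAM1 at most at 1 read. The part of these shifts in the zinc gene values was not tested.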

How the data were processed

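RNA-seq of 3 control and 3 ADP-CM libraries of RL95-2 cells was used. The authors aligned reads to hg19 with TopHat2, counted them on RefSeq genes with HTSeq and deposited raw read counts per gene for each library. Program versions and the strand setting are not given in the sources used here. The counting summary lines, 31.4% to 33.0% of aligned reads per library, name no gene and were left out.

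Counts were fitted in R 4.3.3 with edgeR 4.0.16 (TMM, filterByExpr, quasi-likelihood test, Benjamini-Hochberg adjustment over all tested genes). DESeq2 1.42.0, other normalizations, filters, a replicate term and left-out libraries were alternatives. The fits were first checked on simulated counts with 1 spread for all genes and changes larger than most of the member calls. That check therefore does not cover the small calls. TPM used merged exon lengths of the 19137 symbols matched in GENCODE release 44. No 2 replicates were alike within counting noise (chi-square test).

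Every tested member is named, with values in each library for called members and the 3 most abundant per class. The members and lists were chosen with earlier results of these data known. Protein sequences were not used here. The study's other experiments were not analysed here.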

Additional observations from a re-analysis of the deposited data

Results flagged for a closer look

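Outside the gene counts, 2 summary lines of the counting were higher in every ADP-CM library than in every control library. Reads on no annotated gene made up 11.55% ± 0.0331 of aligned reads in ADP-CM and 10.26% ± 0.0528 in control (SD, n = 3 each). Reads without a unique alignment, a class that covers the whole genome, made up 20.73% ± 0.056 and 20.54% ± 0.0642. The part of them from near-identical metallothionein copies was not tested.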

How the results depend on the processing

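The number of raised members was 6, with 6 to 8 when single libraries were left out. At an adjusted p-value under 0.05 it was 10, including MT1B, which entered the test only through the ADP-CM libraries. Lowered members numbered 4, and 3 to 5 without single libraries. In the main fit 13.5% of all tested genes were raised and 13.0% lowered. The shares of all tested genes at the looser limit and in the edgeR refits are not given here. Those counts of members therefore stand without a background. Past the added 1.5-fold limit, 1 member was raised, but 2 at an adjusted p-value under 0.05 and 2 without control replicate 1, where MT1B joined SLC39A10 (log2 fold change 1.86, adjusted p-value 0.00385, edgeR's quasi-likelihood test), and 1 was lowered throughout. DESeq2 did not call SLC39A13 or SLC30A9. The median log2 fold change ran from -0.0086 to 0.079 for importers, -0.15 to -0.12 for exporters and 0.32 to 0.45 for metallothioneins when single libraries were left out. Some genes without a call changed sign in those fits, with log2 fold changes of -0.0093 to 0.019 for SLC30A5, -0.025 to 0.031 for SLC30A7, -0.0089 to 0.050 for SLC39A11, -0.061 to 0.010 for SLC39A3, -0.027 to 0.10 for SLC39A8 and -0.057 to 0.027 for SLC39A9. The causes were not tested.

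With the replicate number as a term (replicate block), 7 members were raised and 4 lowered, again without the share of all tested genes. The added one was SLC39A7 (adjusted p-value 0.00971, edgeR's quasi-likelihood test). Deviations of same-numbered libraries correlated at 0.073, 0.014 and 0.097 across genes, and those of the other pairs at -0.093 to 0.026. ADP-CM replicates 1 and 3 correlated best with the control of the same number, but ADP-CM replicate 2 with control replicate 1 (0.026). The numbers were not taken as pairs in the main fit, and whether they mark pairs was not tested. A minimum of 10 reads per library left MT1B and SLC30A3 untested. SLC39A7 also passed with plain library sizes (0.00764) and with no filter (0.00995), both in edgeR's quasi-likelihood test. Depth limits MT1B and SLC30A3 most, at no more than 19 reads in any library.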
